A study of Homo sapiens with 48 samples.

Results

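The genes described here build the machinery that carries proteins into the endoplasmic reticulum (ER) and trims their signal peptides. They were 35 genes taken by symbol from a fixed list, out of 58302 genes in the deposited count table, and all 35 were found there. By role they comprised 4 subunits of the Sec61 channel, 5 channel partners, 4 subunits of the translocon-associated protein (TRAP) complex, 6 proteins of the signal recognition particle (SRP), 1 subunit of the SRP receptor, 5 subunits of signal peptidase, 2 factors related to the chaperone BiP, 5 genes of the tail-anchor insertion pathway, 2 genes of multipass insertion and the signal peptide peptidase HM13.

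The cells were AMO1, a human multiple myeloma line that GEO's labels class as a plasmacytoma and tumor plasma cell. Each of 4 lines was 1 clone carrying hairpins switched on by doxycycline (Dox), and all 4 carried hairpins, those at 0 h included. The labels write the genotypes as AMO-1 IRE1 sh7,8,9 for shIRE1 clone 1 and clone 3, and AMO-1 XBP1 sh4,6,7 for shXBP1 clone 1 and clone 18. Cells at 0 h had no treatment, and the others had 0.2 µg/ml Dox for 24, 48 or 72 h. Every clone and time had 3 replicates, grown in separate flasks, which gave 48 libraries of polyadenylated RNA in 16 groups. A Dox-treated line with a non-targeting hairpin was not analysed here, so hours of Dox and the loss of the hairpin's target cannot be told apart within a clone. With 2 clones per hairpin set, the comparisons speak of these 4 clones.

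Most secreted and membrane proteins carry a hydrophobic signal that SRP binds as it leaves the ribosome. SRP docks on its receptor, the ribosome passes to the Sec61 channel, TRAP and the other partners assist, and signal peptidase removes the signal sequence, while proteins with a membrane anchor at their C terminus take a separate route through the BAG6 complex. Plasma cells depend on this route because they secrete antibody in large amounts. IRE1, encoded by ERN1, is an ER stress sensor whose RNase splices XBP1 mRNA, and the spliced message encodes the transcription factor XBP1s, a known activator of many genes of the secretory pathway.

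Libraries held 19177855 to 40767202 counts, with a median of 30776246.5, and at the shallowest depth 1 count was worth 0.0521 CPM, the count scaled to a common library total. At 72 h, XBP1 stood at 34.0 ± 0.758 CPM in shXBP1 clone 1 and 37.9 ± 5.37 CPM in shXBP1 clone 18, from 167 ± 7.65 and 170.2 ± 6.68 CPM at 0 h (mean ± SD, n = 3, here and wherever a mean is given). ERN1 stood at 102 ± 1.71 CPM in shIRE1 clone 1 and 125 ± 2.92 CPM in shIRE1 clone 3, from 152 ± 2.38 and 438 ± 15.3 CPM. XBP1 was lower at 72 h in the shIRE1 clones too. In replicates 1, 2 and 3 of clone 1 it went from 184, 178 and 175 to 132, 139 and 142 CPM. In clone 3 it went from 245, 205 and 200 to 120, 118 and 124 CPM. ERN1 went from 190, 191 and 183 to 312, 318 and 313 CPM in shXBP1 clone 1. In shXBP1 clone 18 it went from 418, 410 and 413 to 362, 347 and 305 CPM. Among plasma cell genes SDC1 lay between 5110 and 15200 CPM over the 48 libraries, while the B cell genes MS4A1 and PAX5 stayed at or under 2.29 and 0.0392 CPM. Replicate 3 labelled as clone 18 of shXBP1 at 72 h stood apart. At 29 of 29 genes that separate the shXBP1 clones it sat with clone 1, and it correlated with the 72 h libraries of clone 1 (r = 0.9938, across genes) more closely than with its own group (r = 0.9833). Some results of clone 18, among them the number of members called at each time, are therefore also given without it. The other values of clone 18 at 72 h include that library. Replicate 1 labelled as clone 3 of shIRE1 at 24 h was also closer to the other shIRE1 clone (r = 0.9925) than to its own group (r = 0.9909), and without it 30, 33 and 32 members were called in that clone at 24, 48 and 72 h.

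Before Dox the machinery was expressed over a wide range. On the scale of CPM per kilobase of merged exon, where levels of different genes can be set side by side, the median level over the 12 libraries at 0 h was highest for SSR3, at 132 CPM per kb (104 to 192), followed by SSR2 at 124 CPM per kb (96.9 to 141), both subunits of TRAP, which holds the channel and ribosome together. TMCO1, a component of the multipass translocon, stood at 112 CPM per kb (86.3 to 158) and TRAM1, a membrane protein beside the channel, at 108 CPM per kb (83.5 to 139). The ranges of these 4 genes overlapped, so their order is not fixed by these libraries. The channel-forming subunit SEC61A1 stood at 79.5 CPM per kb (66.0 to 94.9), while its paralog SEC61A2 stood at 2.47 CPM per kb (2.22 to 2.86). The lowest levels were those of the SRP protein SRP19, at 2.19 CPM per kb (1.73 to 2.65), and of the signal peptidase subunit SPCS2, at 1.03 CPM per kb (0.861 to 1.41). Exons of all annotated transcripts were merged, so a gene with long, rarely used exons reads low on this scale. The ranges of SRP19 and SEC61A2 overlapped, and SRP19 has the longer merged exon, 10.517 kb against 3.916 kb. SPCS2 has 4 named pseudogene copies and 9 of the 35 genes have at least 1, between which reads could have been split. Exons of 6 members overlap those of another gene on the same strand, and 16 more overlap a gene on the opposite strand only. Whether the counting used strand is not given in the sources used here.

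**Figure D1:**
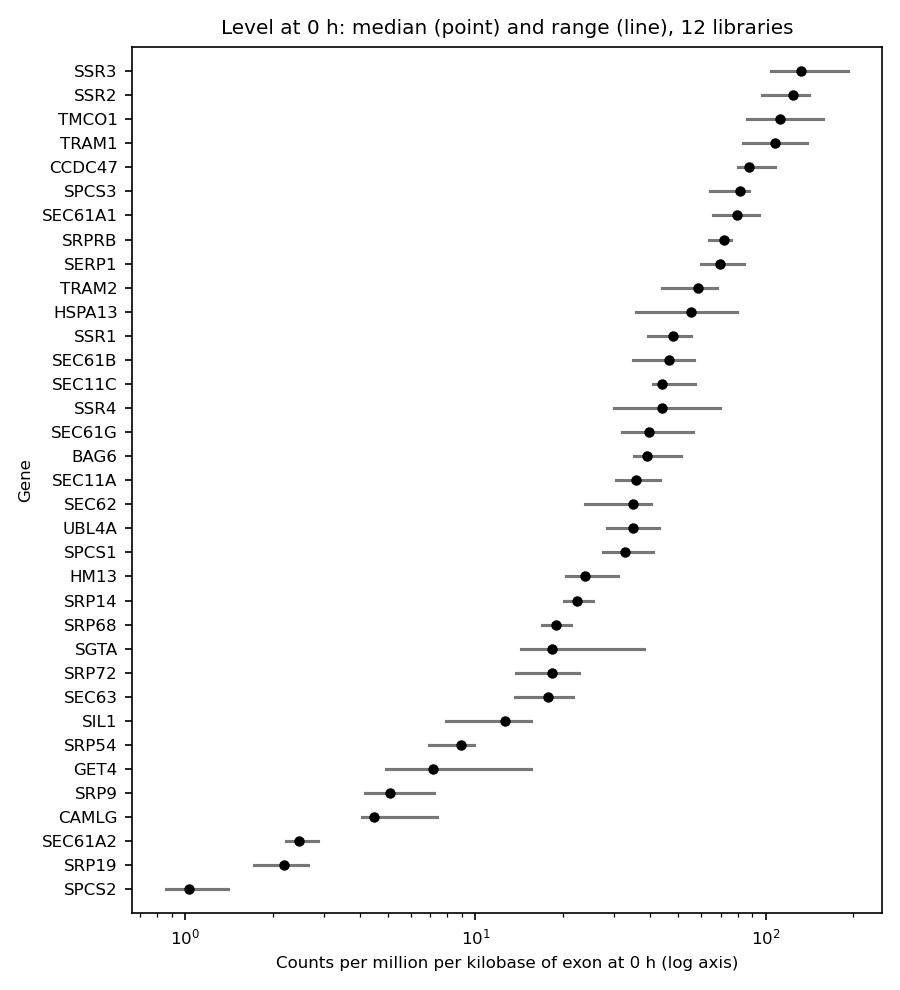
Level of each member at 0 h in CPM per kilobase of merged exon, on a log axis, for the 12 untreated libraries, with a point for the median and a line for the range. SSR3 and SSR2 lead at 132 and 124 CPM per kb, and SRP19 and SPCS2 come last at 2.19 and 1.03.

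Since XBP1s and ATF6 are known to bind short promoter elements, the 250 bases before the annotated start were searched for them on both strands, in RefSeq promoter windows of GRCh38.p14 that matched 31 of the 35 members. TRAM1, SPCS1, GET4 and HM13 did not match. The letters searched were TGACGTG for the unfolded protein response element (UPRE), CCAAT followed by 9 bases and CCACG for the ER stress response element (ERSE), and ATTGG, 1 base and CCACG for ERSE-II. Of the members, 4 held the UPRE letters (12.9%), against 561 of 27305 genes (2.05%), and 1 held the ERSE (3.23%), against 25 genes (0.0916%). No member held ERSE-II, which 18 genes did (0.0659%). The 5 members with a match are shown 5′ to 3′ on the strand of the gene, with up to 30 bases on each side of the match, which is in capitals. In all 5 the capitals are the reverse complement of the letters searched.
SERP1: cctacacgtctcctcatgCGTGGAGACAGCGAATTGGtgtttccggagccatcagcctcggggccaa
SSR3: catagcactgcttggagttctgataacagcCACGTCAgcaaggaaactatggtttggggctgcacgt
SEC62: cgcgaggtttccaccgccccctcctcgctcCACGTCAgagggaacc
SRP19: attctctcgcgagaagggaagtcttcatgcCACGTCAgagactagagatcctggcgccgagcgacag
SSR4: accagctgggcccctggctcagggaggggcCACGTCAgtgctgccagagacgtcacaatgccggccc
The stretch of SERP1 lies at chr3:150546680-150546746 on the minus strand, and its ERSE match ends 214 bases before the start. The UPRE match of SSR3 (chr3:156554129-156554195, minus strand) ends 34 bases before the start and that of SEC62 (chr3:169966761-169966806, plus strand) 10 bases before it. The match of SRP19 (chr5:112861146-112861212, plus strand) ends 105 bases before the start and that of SSR4 (chrX:153794510-153794576, plus strand) 122 bases. These are matches of letters and say nothing of binding in these cells. The values of SERP1, SSR3, SEC62, SRP19 and SSR4 after Dox are given with their roles, and SEC62 is the member of the 5 that was not called in the shXBP1 clones.

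The first question was whether this machinery changed after IRE1 or XBP1 was silenced. Most of it fell in both shIRE1 clones, and fewer of the genes fell in both shXBP1 clones. A gene is called here when the adjusted p of edgeR's quasi-likelihood test against the 0 h libraries of the same clone was under 0.05, with Benjamini-Hochberg adjustment over all genes tested. All 35 members passed the filter on low counts in every clone. In bulk RNA, fewer cells that express a gene and less RNA of it per cell cannot be told apart.

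In shIRE1 clone 1, 26, 32 and 32 of the 35 members fell at 24, 48 and 72 h, where 29%, 31.5% and 31.1% of the 17154 genes tested did. In the same clone 6, 3 and 3 members rose, where 32.4%, 33.9% and 32.5% of genes did. The median log2 fold change of the members was -0.44, -0.57 and -0.51, beside 0.04, 0.03 and 0.02 over all genes tested. In shIRE1 clone 3, 27, 31 and 31 members fell and 2, 2 and 1 rose, where 23.3%, 31.6% and 30.5% of 17204 genes fell and 22.8%, 31.6% and 29.7% rose. Their median was -0.47, -0.70 and -0.69, beside 0.03, 0.02 and 0.02 over all genes.

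Fewer members were called after the XBP1 hairpins. In shXBP1 clone 1, 20, 22 and 24 members fell at 24, 48 and 72 h and 2, 2 and 2 rose, where 12.8%, 15.5% and 16.8% of 16603 genes fell and 13.9%, 16.6% and 16.8% rose. The members' median was -0.30, -0.38 and -0.42, beside -0.01, 0.00 and -0.01 over all genes. In shXBP1 clone 18, 18, 20 and 21 members fell, where 1.3%, 3.5% and 5.55% of 16860 genes did, and the median of the members was -0.30, -0.35 and -0.46, beside 0.00, 0.00 and -0.01 over all genes. Members called higher in clone 18 numbered 0, 1 and 2, where 0.291%, 2.28% and 4.41% of genes rose; at 24 h, where edgeR called 0 members higher, 1 had an unadjusted p under 0.05 and a positive change, and DESeq2 also called 0. Without that replicate 3 of clone 18 at 72 h, the members called in clone 18 numbered 21, 23 and 23 in either direction, while the genes called lower became 3.33%, 7.16% and 4.48% of 17171 and those called higher 1.46%, 5.78% and 3.09%.

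The members' counts added up to 0.803% ± 0.0126 of all counts in shIRE1 clone 1 at 0 h and 0.526% ± 0.00424 at 72 h. In shIRE1 clone 3 the sum went from 0.879% ± 0.0236 to 0.489% ± 0.00342. It went from 0.820% ± 0.0315 to 0.639% ± 0.00306 in shXBP1 clone 1 and from 0.921% ± 0.0180 to 0.657% ± 0.0151 in shXBP1 clone 18. In each clone all 3 libraries at 72 h held a smaller share than all 3 at 0 h. Gene by gene, all 3 libraries at 72 h lay below all 3 at 0 h for 32 and 31 members in shIRE1 clones 1 and 3, and for 25 and 24 members in shXBP1 clones 1 and 18. The same held for 32.9%, 30.9%, 23.9% and 16.3% of all genes tested in these 4 clones.

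**Figure D2:**
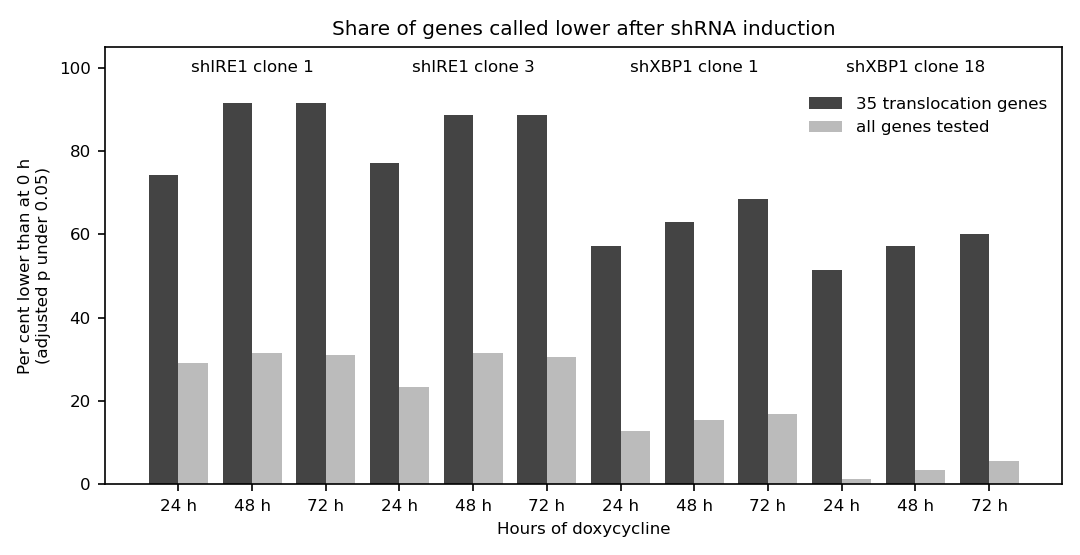
Percentage of the 35 members (dark bars) and of all genes tested (light bars) called lower against 0 h in each clone at 24, 48 and 72 h, at an adjusted p under 0.05. In every clone and at every time the members' percentage is above that of all genes.

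At 72 h, 18 of the 35 members were called lower in all 4 clones, where 1.22% of the 15888 genes tested in all 4 were. The 18 were SEC61A1, SEC61B, SEC61G, SEC63, TRAM1, SERP1, SSR1, SSR2, SSR3, SSR4, SRP19, SRP68, SRP72, SRPRB, SPCS3, SEC11C, HSPA13 and HM13. Their log2 fold changes ranged from -1.92 to -0.16. Of these, 14 were lower in all 4 clones at 24 and 48 h too, and the rest were SEC63, SSR4, TRAM1 and SRP72. The share of all genes lower in all 4 clones at every time was not taken. It cannot exceed the 1.22% at 72 h. Without that replicate 3 of clone 18 at 72 h, all 18 stayed called lower in that clone at 72 h, with changes from -1.29 to -0.24. Both shIRE1 clones shared 29 members called lower at 72 h, where 21.4% of 16795 genes were, and both shXBP1 clones 19, where 2.19% of 16197 were. Called higher in at least 1 clone were 6 members: SEC61A2, TRAM2, SRP14, SIL1, CAMLG and TMCO1. Of all genes tested, 32.5% and 29.7% were called higher in shIRE1 clones 1 and 3. In shXBP1 clones 1 and 18, 16.8% and 4.41% were. The share of all genes called higher in at least 1 clone was not taken. CCDC47, which belongs to the multipass translocon, was called in a single clone.

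**Figure D3:**
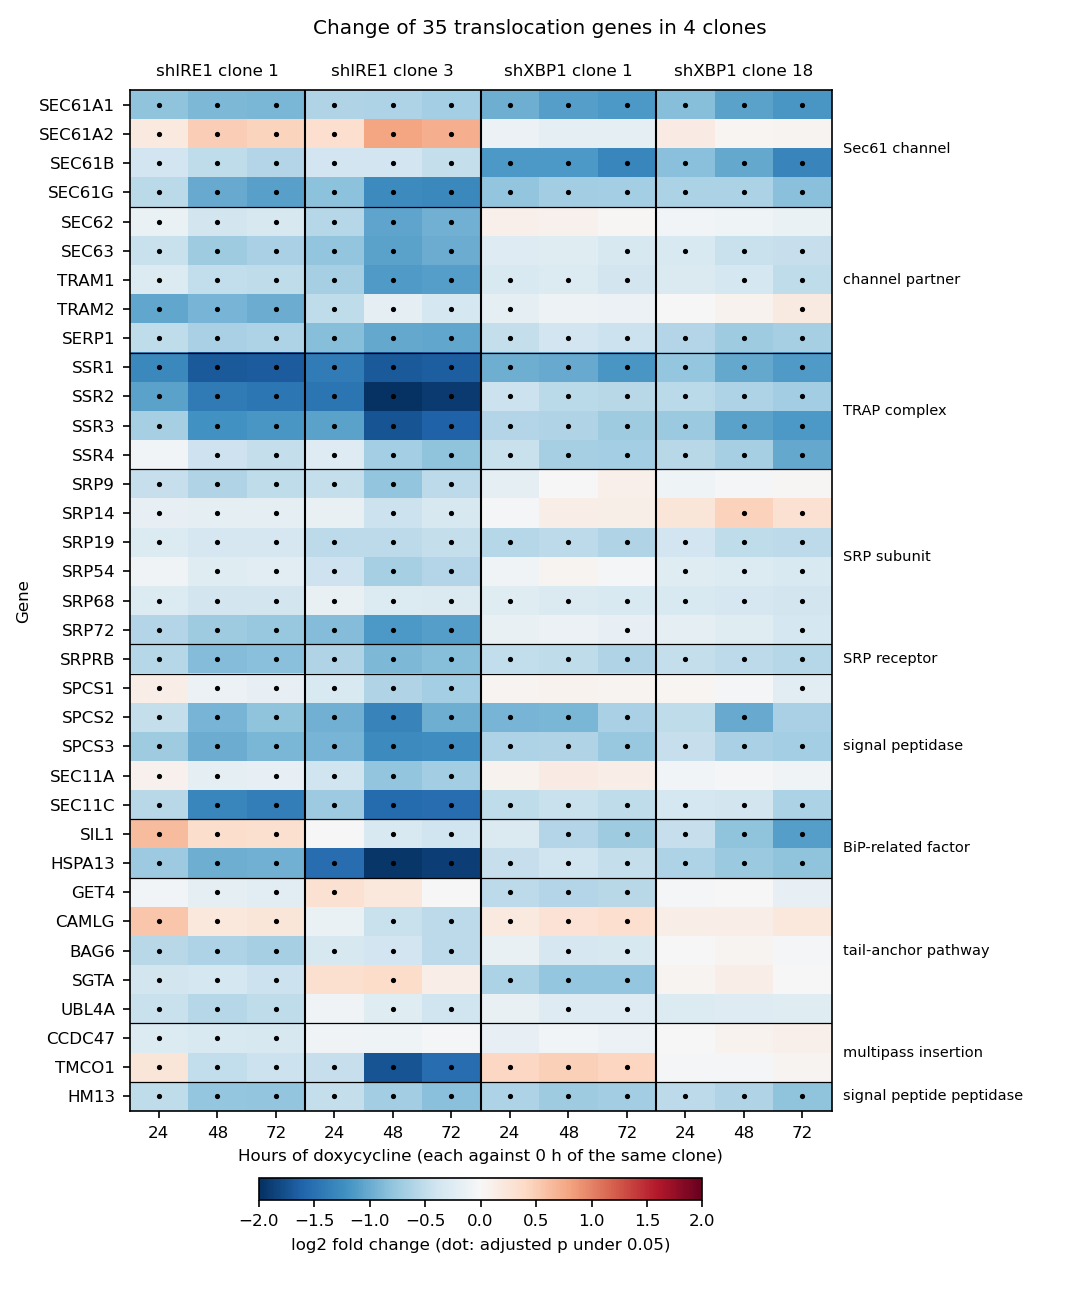
Log2 fold change against 0 h of each member (listed by role down the side) in the 4 clones at 24, 48 and 72 h (along the bottom), with a dot where the adjusted p was under 0.05. At 72 h dots mark falls of the TRAP subunits, SEC61A1, SEC61B and SEC61G in all clones. TRAM2, SRP14, SIL1, CAMLG and TMCO1 were called higher in at least 1 clone and lower in another.

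The Sec61 channel is the pore itself, made of SEC61A1 (or its paralog SEC61A2) with the small subunits SEC61B and SEC61G. SEC61A1, SEC61B and SEC61G fell in every clone, and SEC61A2 rose in the shIRE1 clones. SEC61A1 stood at 822, 859 and 855 CPM in replicates 1, 2 and 3 of shIRE1 clone 1 at 0 h and at 445, 454 and 448 CPM at 72 h. In shIRE1 clone 3 its levels were 791, 779 and 772 CPM at 0 h and 499, 483 and 495 CPM at 72 h. All 6 treated libraries lay below all 6 untreated ones. In shXBP1 clone 1 the levels were 1079.7, 1024 and 1001 CPM at 0 h and 481, 474 and 463 CPM at 72 h. In shXBP1 clone 18 they were 1111, 1086 and 1105 CPM before Dox and 521, 487 and 464 CPM at 72 h, the last value being that of the library that stood apart. The shXBP1 clones thus started from higher levels and ended in the same range as the shIRE1 clones. SEC61A1 fell, with log2 fold changes of -0.92 (SE 0.04, adjusted p = 6.7e-14) in shIRE1 clone 1 and of -0.68 (SE 0.05, adjusted p = 1.1e-08) in shIRE1 clone 3. It fell, with log2 fold changes of -1.15 (SE 0.05, adjusted p = 4.7e-08) in shXBP1 clone 1 and of -1.16 (SE 0.05, adjusted p = 4.5e-08) in shXBP1 clone 18. At 24 h its log2 fold changes were already -0.81, -0.60, -0.97 and -0.85 in the same order of clones.

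SEC61B, the β subunit, stood at 42.1, 43.9 and 53.2 CPM at 0 h and 31.2, 31.9 and 29.9 CPM at 72 h in clone 1 of shIRE1, and at 46.6, 44.9 and 54.1 CPM before Dox and 34.3, 41.1 and 30.1 CPM at 72 h in shIRE1 clone 3. Levels of SEC61B went in shXBP1 clone 1 from 68.5, 66.6 and 64.2 to 30.9, 26.3 and 24.7 CPM, and in shXBP1 clone 18 from 67.9, 58.2 and 61.1 to 27.7, 22.9 and 24.3 CPM. The 0 h and 72 h libraries did not overlap in any clone, and the lowest 72 h values were those of the shXBP1 clones. SEC61B fell, with log2 fold changes of -0.59 (SE 0.08, adjusted p = 2.8e-06) and -0.48 (SE 0.11, adjusted p = 0.0017) in shIRE1 clones 1 and 3, and of -1.30 (SE 0.15, adjusted p = 7.4e-05) and -1.31 (SE 0.11, adjusted p = 1.0e-05) in shXBP1 clones 1 and 18. SEC61G, the γ subunit, showed the larger falls in the shIRE1 clones. It stood at 65.3, 63.7 and 62.2 CPM at 0 h and 28.8, 31.8 and 30.0 CPM at 72 h in clone 1 of shIRE1, and at 73.3, 64.4 and 58.8 CPM before Dox and 26.0, 27.1 and 28.0 CPM at 72 h in shIRE1 clone 3. Its levels in the shXBP1 clones were 72.6, 84.1 and 83.1 CPM before Dox and 49.8, 51.1 and 51.9 CPM at 72 h in clone 1, and 98.5, 103 and 99.7 CPM before Dox and 57.0, 63.0 and 48.4 CPM at 72 h in clone 18. No 72 h library reached the 0 h range of its clone. SEC61G fell, with log2 fold changes of -1.08 (SE 0.07, adjusted p = 6.3e-11) and -1.29 (SE 0.09, adjusted p = 7.4e-09) in the shIRE1 clones. For SEC61G in the shXBP1 clones they were -0.67 (SE 0.07, adjusted p = 3.7e-05) and -0.83 (SE 0.09, adjusted p = 5.4e-05).

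SEC61A2 was a low-level gene that rose in the shIRE1 clones. It stood at 9.79, 9.01 and 10.1 CPM at 0 h and 12.8, 12.6 and 14.0 CPM at 72 h in clone 1 of shIRE1, and at 10.1, 9.82 and 8.70 CPM before Dox and 15.9, 16.3 and 15.4 CPM at 72 h in shIRE1 clone 3, with no overlap. The rise was 0.44 (SE 0.08, adjusted p = 4.8e-05) and 0.72 (SE 0.08, adjusted p = 2.0e-06) on the log2 scale. In the shXBP1 clones the change was -0.18 (SE 0.10, adjusted p = 0.21) and 0.05 (SE 0.10, adjusted p = 0.78), neither of which was called. The 72 h libraries of shXBP1 clone 1, at 9.26, 8.59 and 9.31 CPM, still lay below those at 0 h, at 9.44, 9.59 and 11.2 CPM, and those of clone 18 overlapped.

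**Figure D4:**
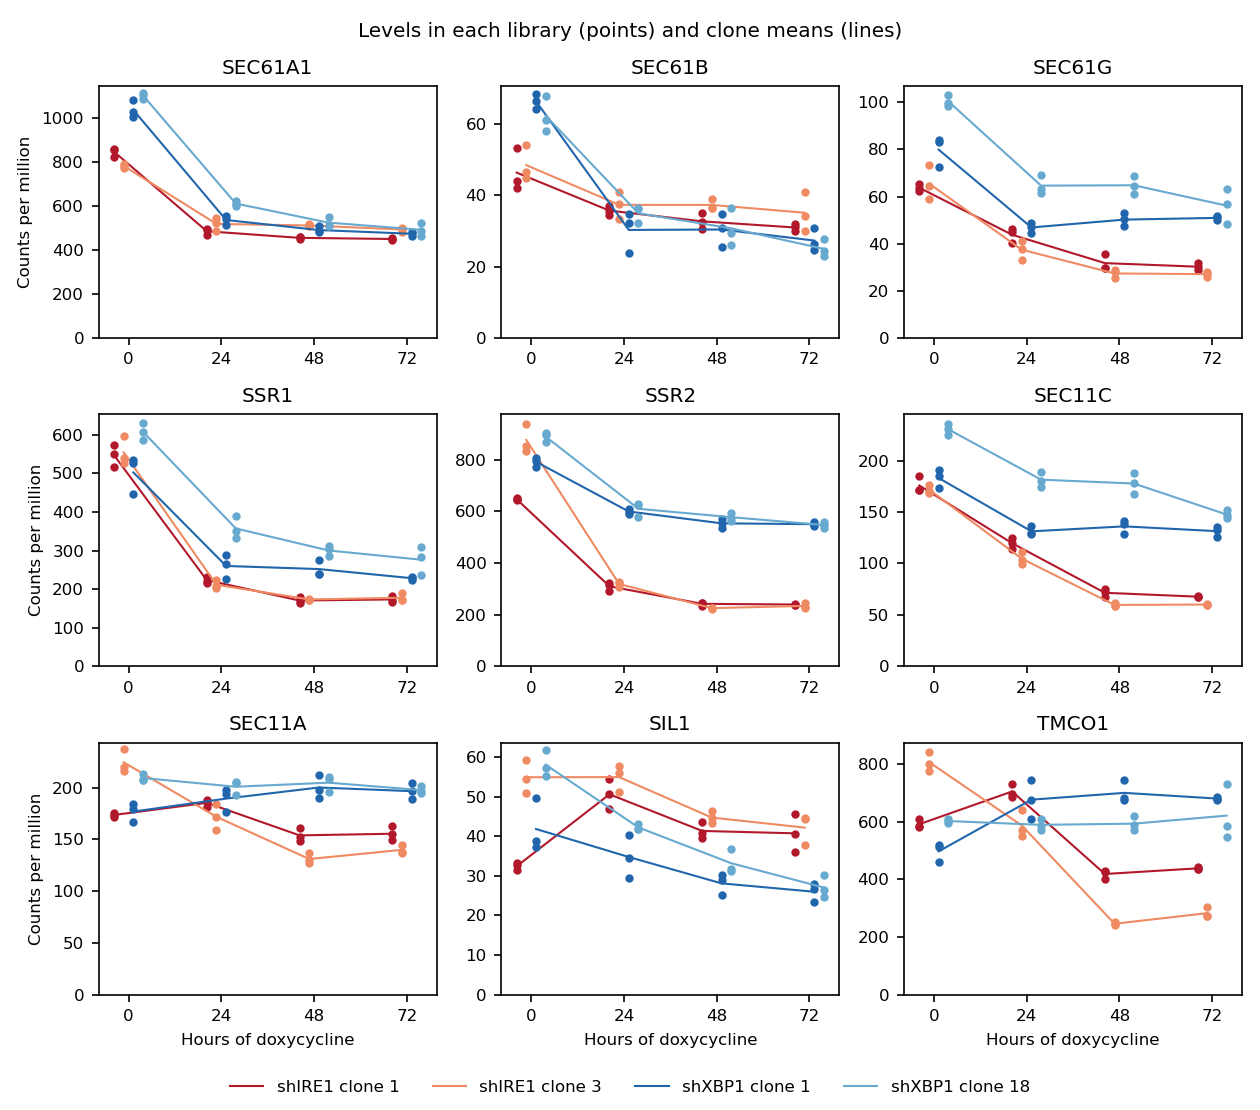
Level in CPM of 9 members in every library, by clone and time, with points for replicates and a line through the means. SEC61A1 ends between 445 and 521 CPM in all clones, SSR2 falls further in the shIRE1 clones than in the shXBP1 clones, and TMCO1 at 72 h is lower than at 0 h in the shIRE1 clones, after a rise at 24 h in shIRE1 clone 1, and higher in shXBP1 clone 1 (SEC11A is shown as the paralog of SEC11C).

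Among the channel partners, SEC62 and SEC63 serve import after translation, TRAM1 and TRAM2 sit beside the channel, and SERP1, also called RAMP4, binds the ribosome and channel. SEC63, TRAM1 and SERP1 fell in all 4 clones, and SEC62 and TRAM2 parted the hairpin sets. SERP1, the member with an ERSE match, stood at 399, 390.2 and 362 CPM at 0 h and 241, 253 and 254 CPM at 72 h in clone 1 of shIRE1, and at 482, 426 and 412 CPM before Dox and 216, 211 and 222 CPM at 72 h in shIRE1 clone 3. SERP1 levels in shXBP1 clone 1 were 343, 382 and 373 CPM before Dox and 271, 283 and 278 CPM at 72 h, and in shXBP1 clone 18 they were 415, 437 and 403 CPM before Dox and 251, 273 and 261 CPM at 72 h. The times did not overlap in any clone. SERP1 fell, with log2 fold changes of -0.62 (SE 0.04, adjusted p = 4.4e-10) and -1.04 (SE 0.06, adjusted p = 1.7e-09) in the shIRE1 clones. For SERP1 in the shXBP1 clones they were -0.42 (SE 0.06, adjusted p = 4.0e-04) and -0.67 (SE 0.06, adjusted p = 1.3e-05). SEC63, whose J domain recruits BiP to the channel, went from 150.1 ± 1.98 to 95.9 ± 3.35 CPM in shIRE1 clone 1 and from 185 ± 0.566 to 93.3 ± 8.28 CPM in shIRE1 clone 3, log2 fold changes of -0.65 (SE 0.05, adjusted p = 4.8e-10) and -0.9997 (SE 0.06, adjusted p = 6.0e-10). It went from 138 ± 17.3 to 112 ± 3.21 CPM in shXBP1 clone 1 and from 163 ± 8.07 to 118 ± 4.29 CPM in shXBP1 clone 18, log2 fold changes of -0.32 (SE 0.10, adjusted p = 0.025) and -0.46 (SE 0.06, adjusted p = 4.9e-04). The call of SEC63 in shXBP1 clone 1 was lost in 5 of the 12 fits without 1 library, namely without 0 h replicate 2 or 3 or without any one replicate at 72 h, with an adjusted p of up to 0.073.

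TRAM1 went from 416 ± 28.9 to 293 ± 4.84 CPM in shIRE1 clone 1 and from 467 ± 26.4 to 220.0 ± 12.3 CPM in shIRE1 clone 3, with log2 fold changes of -0.51 (SE 0.05, adjusted p = 1.4e-08) and -1.10 (SE 0.06, adjusted p = 3.2e-10). It went from 394 ± 42.2 to 309 ± 11.9 CPM in shXBP1 clone 1 and from 539 ± 29.5 to 379 ± 45.2 CPM in shXBP1 clone 18, with log2 fold changes of -0.37 (SE 0.09, adjusted p = 0.011) and -0.50 (SE 0.08, adjusted p = 0.0029). TRAM2 is its paralog. TRAM2 stood at 460.4, 478 and 443 CPM at 0 h and 225, 230.3 and 239 CPM at 72 h in clone 1 of shIRE1, and at 309.6, 332 and 319.6 CPM before Dox and 253, 241 and 266 CPM at 72 h in shIRE1 clone 3. The levels in shXBP1 clone 1 were 443, 465 and 467 CPM before Dox and 409, 447 and 434 CPM at 72 h, and in clone 18 they were 379, 372 and 375 CPM before Dox and 417, 416 and 430.0 CPM at 72 h. The treated libraries were below the untreated ones in both shIRE1 clones, overlapped in shXBP1 clone 1 and were above in shXBP1 clone 18. TRAM2 fell, with log2 fold changes of -0.996 (SE 0.04, adjusted p = 1.3e-13) and -0.35 (SE 0.05, adjusted p = 2.8e-05) in the shIRE1 clones, had a log2 fold change of -0.11 (SE 0.04, adjusted p = 0.059), uncalled, in shXBP1 clone 1, and rose by 0.17 (SE 0.05, adjusted p = 0.033) in shXBP1 clone 18. That rise lost its call in 5 of 12 fits without 1 library, any one at 0 h or either replicate 1 or 2 at 48 h, with an adjusted p of up to 0.098. The change of TRAM2 in shXBP1 clone 1 became a called fall without 0 h replicate 1 or 24 h replicate 2, with an adjusted p down to 0.045.

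SEC62 carries a UPRE match. Its levels were 263, 252 and 231 CPM at 0 h and 195, 196 and 204 CPM at 72 h in shIRE1 clone 1, and 302, 302 and 289 CPM before Dox and 148, 151 and 166 CPM at 72 h in shIRE1 clone 3. In the shXBP1 clones they were 189, 232 and 236 CPM before Dox and 219.5, 226 and 234 CPM at 72 h in clone 1, and 296, 319.9 and 304 CPM before Dox and 280.1, 301 and 257 CPM at 72 h in clone 18. The times separated in the shIRE1 clones and overlapped in the shXBP1 clones. SEC62 fell, with log2 fold changes of -0.32 (SE 0.05, adjusted p = 1.5e-05) and -0.95 (SE 0.06, adjusted p = 2.6e-09) in shIRE1 clones 1 and 3. Its change was 0.02 (SE 0.10, adjusted p = 0.88) and -0.13 (SE 0.07, adjusted p = 0.23) in shXBP1 clones 1 and 18, neither called.

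TRAP, encoded by SSR1 to SSR4, binds the ribosome and the channel and helps proteins with weak signal sequences to enter. All 4 subunits fell in all 4 clones at 72 h, where 1.22% of the genes tested in all 4 did. This was the role with the lowest median change in both shIRE1 clones, -1.30 and -1.63, and in shXBP1 clone 18, -1.08. In shXBP1 clone 1 the lowest median was that of the Sec61 channel, -0.91, and that of TRAP was -0.69. SSR2 stood at 646, 644 and 649.7 CPM at 0 h and 236, 243 and 238 CPM at 72 h in clone 1 of shIRE1, and at 939, 835 and 853 CPM before Dox and 227, 229 and 245 CPM at 72 h in shIRE1 clone 3. With XBP1 hairpins, the levels in clone 1 were 796, 771 and 807 CPM before Dox and 547, 559 and 544 CPM at 72 h, and in clone 18 they were 905, 868 and 895 CPM before Dox and 535, 546 and 559 CPM at 72 h. The 72 h libraries lay below those at 0 h in each clone, and the 6 of the shIRE1 clones lay below the 6 of the shXBP1 clones. SSR2 fell, with log2 fold changes of -1.44 (SE 0.04, adjusted p = 5.2e-16) and -1.92 (SE 0.05, adjusted p = 4.4e-13) in the shIRE1 clones. For SSR2 in the shXBP1 clones they were -0.55 (SE 0.04, adjusted p = 2.2e-06) and -0.69 (SE 0.05, adjusted p = 3.2e-06). SSR1 stood at 574, 551 and 518 CPM at 0 h and 167, 172 and 181 CPM at 72 h in clone 1 of shIRE1, and at 596, 539.8 and 528 CPM before Dox and 171, 171 and 191 CPM at 72 h in shIRE1 clone 3. Its levels in shXBP1 clone 1 were 446, 535 and 528 CPM before Dox and 223, 230.1 and 232 CPM at 72 h, and in clone 18 they were 586, 629.9 and 608 CPM before Dox and 283, 309 and 237 CPM at 72 h. It fell by about the same amount in the clones of one hairpin set, -1.66 (SE 0.05, adjusted p = 6.9e-16) and -1.65 (SE 0.06, adjusted p = 3.5e-12) in the shIRE1 clones and -1.16 (SE 0.09, adjusted p = 5.0e-06) and -1.13 (SE 0.09, adjusted p = 4.1e-06) in the shXBP1 clones.

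SSR3, which has a UPRE match, went from 649, 592 and 576 to 268, 273 and 275 CPM in shIRE1 clone 1 and from 778, 718 and 709 to 229, 238 and 261 CPM in shIRE1 clone 3. It went from 537, 655 and 658 to 378, 386 and 388 CPM in shXBP1 clone 1 and from 917, 996 and 945 to 423, 471 and 397 CPM in shXBP1 clone 18. The clones began at different levels, with shXBP1 clone 18 highest, and no times overlapped. SSR3 fell, with log2 fold changes of -1.16 (SE 0.05, adjusted p = 1.2e-13) and -1.61 (SE 0.05, adjusted p = 3.5e-12) in the shIRE1 clones. For SSR3 in the shXBP1 clones they were -0.71 (SE 0.09, adjusted p = 1.5e-04) and -1.14 (SE 0.07, adjusted p = 7.3e-07). SSR4, the other subunit with a UPRE match, went from 147 ± 10.5 to 105 ± 3.60 CPM and from 185 ± 11.4 to 106 ± 16.1 CPM in shIRE1 clones 1 and 3, log2 fold changes of -0.48 (SE 0.06, adjusted p = 1.5e-06) and -0.81 (SE 0.10, adjusted p = 4.7e-06). In the shXBP1 clones it went from 229 ± 29.4 to 145 ± 13.2 CPM in clone 1 and from 294 ± 20.6 to 144 ± 26.3 CPM in clone 18, log2 fold changes of -0.68 (SE 0.14, adjusted p = 0.0035) and -1.02 (SE 0.12, adjusted p = 1.9e-04). SSR4 moved most of the 18 when the library that stood apart was left out, by 0.11 on the log2 scale, closely followed by SRP72, whose change in shXBP1 clone 18 was then -0.24 (adjusted p = 0.014, edgeR).

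SRP captures ribosomes that expose a signal sequence, and its receptor sits in the ER membrane. The log2 fold changes of the 6 SRP proteins at 72 h ran from -0.76 to -0.19 in shIRE1 clone 1, -1.09 to -0.29 in shIRE1 clone 3, -0.60 to 0.12 in shXBP1 clone 1 and -0.53 to 0.31 in shXBP1 clone 18. All 6 were called lower in both shIRE1 clones, where 21.4% of the genes tested in both were. In shXBP1 clones 1 and 18, 3 and 4 were called lower, where 16.8% and 5.55% of all genes were. The count of 4 in clone 18 became 2 without 0 h replicate 2 or 3, where SRP54 and SRP72 lost their calls. SRP19, which is needed to assemble the particle and has a UPRE match, went from 24.7, 27.8 and 24.9 to 19.0, 21.4 and 21.1 CPM in shIRE1 clone 1 and from 25.1, 24.6 and 22.8 to 15.8, 17.2 and 19.6 CPM in shIRE1 clone 3. It went from 18.2, 20.4 and 19.3 to 13.2, 13.1 and 12.5 CPM in shXBP1 clone 1 and from 21.5, 22.1 and 23.2 to 16.3, 15.3 and 14.5 CPM in clone 18. Its times did not overlap in any clone. SRP19 fell, with log2 fold changes of -0.34 (SE 0.07, adjusted p = 1.8e-04) and -0.48 (SE 0.10, adjusted p = 5.7e-04) in the shIRE1 clones. For SRP19 in the shXBP1 clones they were -0.60 (SE 0.08, adjusted p = 1.7e-04) and -0.53 (SE 0.08, adjusted p = 0.0016). SRP68 and SRP72 form a pair within the particle. SRP68 fell from 143 ± 1.95 to 112 ± 1.92 CPM and from 133 ± 7.37 to 110.2 ± 1.32 CPM in shIRE1 clones 1 and 3, with log2 fold changes of -0.36 (SE 0.04, adjusted p = 2.6e-07) and -0.29 (SE 0.05, adjusted p = 1.0e-04). In shXBP1 clones 1 and 18 it fell from 138 ± 3.43 to 114 ± 4.37 CPM and from 159.9 ± 0.852 to 123 ± 6.28 CPM, with log2 fold changes of -0.31 (SE 0.05, adjusted p = 7.2e-04) and -0.37 (SE 0.05, adjusted p = 3.9e-04).

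SRP72 stood at 109, 106 and 99.2 CPM at 0 h and 57.9, 64.3 and 63.6 CPM at 72 h in clone 1 of shIRE1, and at 119, 116 and 116 CPM before Dox and 52.5, 51.2 and 62.1 CPM at 72 h in shIRE1 clone 3. In the shXBP1 set, levels of SRP72 in clone 1 were 84.8, 91.8 and 91.2 CPM before Dox and 78.6, 82.2 and 82.9 CPM at 72 h, and in clone 18 they were 134, 140.1 and 137 CPM before Dox and 115, 116 and 89.8 CPM at 72 h. No times overlapped, though in shXBP1 clone 1 the gap was narrow. SRP72 fell, with log2 fold changes of -0.76 (SE 0.05, adjusted p = 7.1e-11) and -1.09 (SE 0.07, adjusted p = 6.7e-09) in the shIRE1 clones. For SRP72 in the shXBP1 clones they were -0.16 (SE 0.06, adjusted p = 0.045) and -0.35 (SE 0.08, adjusted p = 0.02). The call in shXBP1 clone 1 was the weakest of the 18 genes: it was lost in 9 of 12 fits without 1 library, with an adjusted p of up to 0.15, the exceptions being 0 h replicate 1 and 24 h replicates 1 and 2. It was also lost with DESeq2 (adjusted p = 0.054), with the replicate block (adjusted p = 0.080), without the filter on low counts and with 6 or 48 libraries in the fit. In shXBP1 clone 18 the call was lost without any one of the replicates at 0 h, with an adjusted p of up to 0.089. SRPRB, the β subunit that anchors the SRP receptor, fell from 304 ± 10.5 to 171 ± 2.12 CPM and from 278 ± 16.9 to 155 ± 5.03 CPM in shIRE1 clones 1 and 3, with log2 fold changes of -0.83 (SE 0.04, adjusted p = 8.7e-13) and -0.86 (SE 0.05, adjusted p = 1.2e-09). In shXBP1 clones 1 and 18 it fell from 299 ± 12.1 to 199.8 ± 2.02 CPM and from 315 ± 4.82 to 210.3 ± 9.29 CPM, with log2 fold changes of -0.60 (SE 0.05, adjusted p = 4.7e-06) and -0.58 (SE 0.05, adjusted p = 1.4e-05). The other SRP genes were SRP9 and SRP14, which slow translation while the ribosome docks, and SRP54, which binds the signal sequence. SRP9, like SEC62 and SEC11A, was called lower in both shIRE1 clones at 72 h and not called in either shXBP1 clone. Of the genes tested in both shIRE1 clones, 21.4% were called lower in both. How many of those were uncalled in both shXBP1 clones was not taken. SEC11A was called higher in shXBP1 clone 1 without 24 h replicate 2 (0.14, adjusted p = 0.045, edgeR).

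Signal peptidase cuts the signal sequence from the entering chain, with SEC11A and SEC11C as alternative catalytic subunits and SPCS1 to SPCS3 as accessory ones. All 5 genes were called lower in both shIRE1 clones at 72 h, where 21.4% of the genes tested in both were. Their changes lay between -1.38 and -0.16 on the log2 scale in clone 1 and -1.53 and -0.68 in clone 3. In shXBP1 clones 1 and 18, 3 and 3 were called lower, where 16.8% and 5.55% of all genes were. Changes of the 5 genes ran there from -0.76 to 0.13 and from -0.68 to -0.08. SEC11C stood at 185, 171 and 172 CPM at 0 h and 67.2, 67.7 and 68.2 CPM at 72 h in clone 1 of shIRE1, and at 171, 169 and 177 CPM before Dox and 59.5, 59.9 and 60.8 CPM at 72 h in shIRE1 clone 3. Its levels in shXBP1 clone 1 were 191, 185 and 173 CPM before Dox and 126, 133 and 136 CPM at 72 h, and in clone 18 they were 225, 231 and 236 CPM before Dox and 144, 147 and 152 CPM at 72 h. At 72 h every shIRE1 library was below every shXBP1 library, and all were below the 0 h libraries of their clone. SEC11C fell, with log2 fold changes of -1.38 (SE 0.05, adjusted p = 1.8e-14) and -1.53 (SE 0.05, adjusted p = 3.5e-12) in the shIRE1 clones. For SEC11C in the shXBP1 clones they were -0.50 (SE 0.05, adjusted p = 2.9e-05) and -0.64 (SE 0.06, adjusted p = 1.6e-05). SPCS3 fell from 567 ± 28.8 to 301 ± 14.9 CPM and from 584 ± 22.3 to 249 ± 11.4 CPM in shIRE1 clones 1 and 3, with log2 fold changes of -0.92 (SE 0.05, adjusted p = 9.1e-12) and -1.24 (SE 0.05, adjusted p = 4.0e-11). In shXBP1 clones 1 and 18 it fell from 517 ± 67.7 to 311 ± 9.69 CPM and from 517 ± 32.9 to 321 ± 19.6 CPM, with log2 fold changes of -0.76 (SE 0.11, adjusted p = 3.0e-04) and -0.68 (SE 0.07, adjusted p = 6.1e-05). HM13, the signal peptide peptidase that clears cut signal peptides from the membrane, fell from 189 ± 5.20 to 110.0 ± 0.865 CPM and from 189.6 ± 11.9 to 108 ± 8.53 CPM in the shIRE1 clones, with log2 fold changes of -0.78 (SE 0.04, adjusted p = 6.8e-12) and -0.83 (SE 0.07, adjusted p = 9.3e-08). It fell, with log2 fold changes of -0.70 (SE 0.08, adjusted p = 5.5e-05) and -0.81 (SE 0.07, adjusted p = 7.3e-06) in shXBP1 clones 1 and 18, from 235 ± 28.6 to 147 ± 0.655 CPM and from 270.3 ± 0.458 to 154 ± 13.5 CPM.

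Among the factors related to BiP, HSPA13 fell in every clone and SIL1 in all but shIRE1 clone 1, where it rose. SIL1 exchanges nucleotide on BiP, and HSPA13 is an Hsp70-family ATPase of the ER. SIL1 stood at 31.4, 32.7 and 33.2 CPM at 0 h and 45.5, 40.7 and 36.0 CPM at 72 h in clone 1 of shIRE1, and at 51.0, 54.5 and 59.2 CPM before Dox and 44.3, 44.5 and 37.8 CPM at 72 h in shIRE1 clone 3. After XBP1 hairpins its levels in clone 1 were 49.6, 37.2 and 38.7 CPM before Dox and 27.9, 26.6 and 23.4 CPM at 72 h, and in clone 18 they were 61.7, 57.2 and 55.3 CPM before Dox and 30.1, 24.6 and 26.5 CPM at 72 h. The times separated in every clone, upward in shIRE1 clone 1 and downward in the other three. SIL1 rose by 0.33 (SE 0.08, adjusted p = 0.0012) in shIRE1 clone 1, fell, with a log2 fold change of -0.39 (SE 0.08, adjusted p = 7.3e-04), in shIRE1 clone 3, and fell, with log2 fold changes of -0.71 (SE 0.14, adjusted p = 0.0024) and -1.09 (SE 0.08, adjusted p = 4.2e-06) in shXBP1 clones 1 and 18. The 72 h levels of the shIRE1 clones were close together, from 0 h levels that differed. HSPA13 stood at 206, 188 and 172 CPM at 0 h and 90.2, 98.7 and 102 CPM at 72 h in clone 1 of shIRE1, and at 330.0, 329 and 313 CPM before Dox and 86.0, 85.0 and 94.0 CPM at 72 h in shIRE1 clone 3. In shXBP1 clones 1 and 18 it went from 149, 195 and 196 to 126, 133 and 136 CPM and from 254, 279.8 and 262 to 149.6, 168 and 137 CPM. No times overlapped, and the 72 h levels of both shIRE1 clones lay below those of the shXBP1 clones. HSPA13 fell, with log2 fold changes of -0.96 (SE 0.06, adjusted p = 1.6e-10) and -1.89 (SE 0.06, adjusted p = 1.8e-12) in the shIRE1 clones. For HSPA13 in the shXBP1 clones they were -0.47 (SE 0.12, adjusted p = 0.01) and -0.80 (SE 0.08, adjusted p = 3.6e-05).

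The tail-anchor pathway inserts proteins whose only membrane anchor lies at the C terminus. SGTA hands them to the complex of BAG6, UBL4A and GET4, and CAMLG is part of the receptor in the ER membrane. At 72 h their log2 fold changes ran from -0.67 to 0.24 in shIRE1 clone 1, with 4 called lower and 1 higher, and from -0.53 to 0.13 in shIRE1 clone 3, with 3 called lower. In shXBP1 clone 1 they ran from -0.78 to 0.34, with 4 lower and 1 higher, and in shXBP1 clone 18 from -0.24 to 0.22 with adjusted p values from 0.074 to 0.99. Of all genes tested, 31.1%, 30.5%, 16.8% and 5.55% were called lower in these 4 clones, and 32.5%, 29.7%, 16.8% and 4.41% higher. In clone 18, UBL4A was called lower without 48 h replicate 3 (-0.24, adjusted p = 0.042, edgeR) and CAMLG higher without 72 h replicate 1 (0.28, adjusted p = 0.042, edgeR). The 0 h replicate 1 of shXBP1 clone 1 was high in these genes, with GET4 at 83.6 CPM against 54.6 and 55.4 CPM, and SGTA at 315 CPM against 227 and 222 CPM. Over the 35 members, that library was the lowest of the 0 h replicates of its clone for 21 and the highest for 11. Without it, GET4 (-0.32, adjusted p = 0.15), BAG6 (-0.23, adjusted p = 0.093) and UBL4A (-0.19, adjusted p = 0.12) lost their calls by edgeR, and SGTA stayed lower (-0.59, adjusted p = 0.029). The 4 called lower also became 2 without 72 h replicate 1 and 1 without 72 h replicate 2 or 3.

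TMCO1, with CCDC47 a component of the translocon for multipass proteins, was the member whose clones differed most. It stood at 608, 585 and 579.6 CPM at 0 h and 435, 441 and 437 CPM at 72 h in clone 1 of shIRE1, and at 842, 776 and 799 CPM before Dox and 271, 274 and 303 CPM at 72 h in shIRE1 clone 3. Levels of TMCO1 in shXBP1 clone 1 were 459.8, 510.1 and 520.3 CPM before Dox and 675, 685 and 678 CPM at 72 h, and in clone 18 they were 594, 602 and 608 CPM before Dox and 545, 586 and 730.3 CPM at 72 h. The treated libraries were below the untreated ones in both shIRE1 clones, above them in shXBP1 clone 1 and on both sides in clone 18, where the high value is that of the library that stood apart. At 24 h TMCO1 was higher in shIRE1 clone 1, by 0.25 (SE 0.04, adjusted p = 1.0e-05), and lower in shIRE1 clone 3, at -0.47 (SE 0.06, adjusted p = 1.3e-05). At 72 h TMCO1 fell, with log2 fold changes of -0.44 (SE 0.04, adjusted p = 6.1e-09) and -1.53 (SE 0.06, adjusted p = 1.6e-11) in the shIRE1 clones, rose by 0.43 (SE 0.07, adjusted p = 8.5e-04) in shXBP1 clone 1 and had a log2 fold change of 0.05 (SE 0.09, adjusted p = 0.75), uncalled, in clone 18. Without the library that stood apart, the change in clone 18 was -0.08 (SE 0.05, adjusted p = 0.36, edgeR).

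A single model over the 48 libraries then asked whether the change differed between the hairpin sets, as the mean change of the shIRE1 clones minus that of the shXBP1 clones. Most members had the more negative change in the shIRE1 clones, and the Sec61 subunits SEC61A1 and SEC61B fell further in the shXBP1 clones. At 24, 48 and 72 h, 15, 23 and 24 members had a called difference below 0, where 19.7%, 28% and 27.4% of 18445 genes did. Differences above 0 were called for 6, 4 and 4 members, where 19.1%, 28.9% and 28% of genes had one. The members' median difference was -0.13, -0.37 and -0.36, beside 0.04, 0.04 and 0.04 over all genes. The difference was called with the same sign at all 3 times for 19 members. The share of all genes for which it was has not been taken. Such genes cannot number more than the 7144 of 18445 called at 24 h, where 21 members were called. At 72 h no difference was called for SSR4, SRP19, SRP68, SPCS2, GET4, SGTA and HM13, and 28 were called, with or without the library that stood apart.

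Of the differences called at 72 h, 10 reached 0.58 in size, and 7 of these were below 0. TMCO1 had the largest of the 10, -1.22 (SE 0.07, adjusted p = 4.4e-18). SSR2 differed by -1.06 (SE 0.04, adjusted p = 6.4e-23), SEC11C by -0.89 (SE 0.05, adjusted p = 3.3e-18) and HSPA13 by -0.79 (SE 0.09, adjusted p = 1.8e-09), and SSR2, SEC11C and HSPA13 fell in all 4 clones. TRAM2 differed by -0.70 (SE 0.04, adjusted p = 3.1e-17), SRP72 by -0.67 (SE 0.07, adjusted p = 1.9e-10) and SEC62 by -0.59 (SE 0.08, adjusted p = 2.1e-08). Above 0 stood SIL1 at 0.87 (SE 0.10, adjusted p = 2.3e-09), SEC61B at 0.78 (SE 0.12, adjusted p = 1.0e-06) and SEC61A2 at 0.64 (SE 0.08, adjusted p = 1.9e-08). SEC61A1 had a called difference of 0.36 (SE 0.04, adjusted p = 2.1e-09), while SEC61G differed the other way, by -0.43 (SE 0.08, adjusted p = 3.9e-05). So the differences of the subunits of 1 channel did not share a sign, although SEC61A1, SEC61B and SEC61G fell in all 4 clones. Among TRAP genes, SSR1 and SSR3 differed by -0.51 (SE 0.08, adjusted p = 6.5e-07) and -0.46 (SE 0.07, adjusted p = 1.0e-06), and SSR4 by 0.20 (SE 0.12, adjusted p = 0.15), which was not called. HM13 and SRP68 had differences of -0.05 (SE 0.07, adjusted p = 0.52) and 0.01 (SE 0.04, adjusted p = 0.79), so that a difference of 0 lay within 1 SE for both. SRP19 differed by 0.16 (SE 0.08, adjusted p = 0.092), uncalled, and was called without the library shIRE1 clone 3, 24 h, replicate 1 alone (adjusted p = 0.042).

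**Figure D5:**
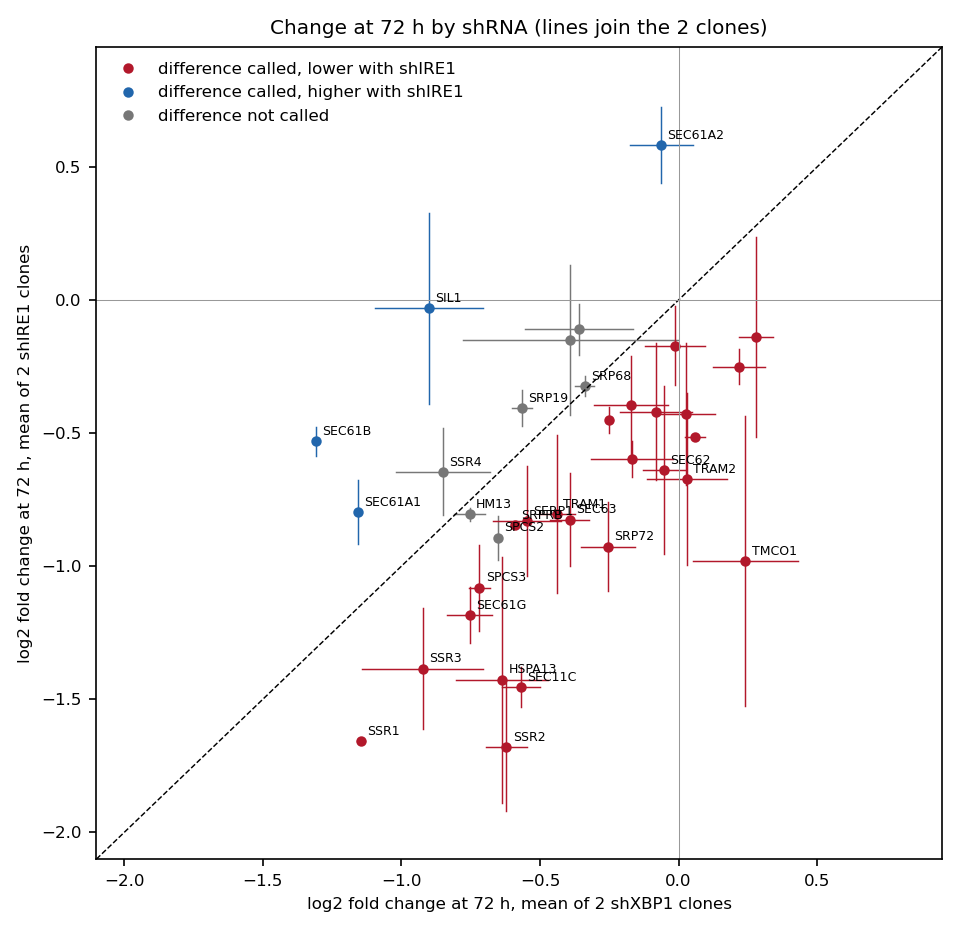
Mean log2 fold change at 72 h of the shXBP1 clones (x axis) and of the shIRE1 clones (y axis) for each of the 35 members, with solid lines that reach to the value of each clone and a dashed line of equal change; red and blue mark called differences below and above 0, and grey those not called. The 24 red points lie below the dashed line, TMCO1 farthest, and the 4 blue ones, SIL1, SEC61B, SEC61A2 and SEC61A1, above it.

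The clones of 1 hairpin set did not respond alike in all members. Between the shIRE1 clones the change at 72 h differed for 18 members, where 27.5% of genes differed, and in 15 of the 18 the change was more negative in clone 3. TMCO1 differed most, by 1.08 (SE 0.10, adjusted p = 3.4e-11) for clone 1 minus clone 3, followed by HSPA13 at 0.91 (SE 0.13, adjusted p = 8.1e-07), CAMLG at 0.74 (SE 0.10, adjusted p = 2.0e-07) and SIL1 at 0.71 (SE 0.14, adjusted p = 2.1e-04). TRAM2 went the other way, by -0.66 (SE 0.06, adjusted p = 4.6e-11). SSR1 and HM13 had differences of -0.02 (SE 0.11, adjusted p = 0.93) and 0.04 (SE 0.09, adjusted p = 0.81), uncalled. Between the shXBP1 clones, 11 members differed, where 24.6% of genes did, and 9 of the 11 were above 0 for clone 1 minus clone 18. The largest in size was that of SGTA, -0.75 (SE 0.22, adjusted p = 0.011), which was -0.68 (adjusted p = 0.037, edgeR) without the library that stood apart and lost its call (-0.59, adjusted p = 0.056, edgeR) without shXBP1 clone 1, 0 h, replicate 1. SSR3 differed by 0.46 (SE 0.10, adjusted p = 8.2e-04) and TMCO1 by 0.41 (SE 0.10, adjusted p = 0.0021), while TRAM2 differed by -0.26 (SE 0.06, adjusted p = 0.0015). This count was 6 without shXBP1 clone 1, 0 h, replicate 1, 6 without shXBP1 clone 1, 72 h, replicate 2, and 7 without shXBP1 clone 18, 72 h, replicate 3, where SSR2, SRP54, SIL1 and HSPA13 lost their calls.

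The clones also began at different levels. At 0 h, 19 members differed between the shIRE1 clones, where 40.6% of genes did: 13 were lower and 6 higher in clone 1. HSPA13 differed by -0.78 (SE 0.09, adjusted p = 5.6e-09) on the log2 scale, SIL1 by -0.76 (SE 0.10, adjusted p = 1.0e-07) and TRAM2 by 0.52 (SE 0.04, adjusted p = 7.4e-13). At 0 h, 25 members differed between the shXBP1 clones, where 51.3% of genes did, and 20 of them were lower in clone 1. HSPA13 differed there by -0.56 (SE 0.09, adjusted p = 2.5e-06), SRP72 by -0.62 (SE 0.07, adjusted p = 2.1e-09) and SSR3 by -0.63 (SE 0.07, adjusted p = 2.5e-09), and TRAM2 by 0.29 (SE 0.04, adjusted p = 4.3e-07). The clone differences in change at 72 h include these differences at 0 h, since each clone is set against its own 0 h libraries.

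Of 26 further genes of targeting, translocation and insertion that are not members, 14 lower and 5 higher of 25 tested were called at 72 h in shIRE1 clone 1 and 16 lower and 3 higher of 24 tested in shIRE1 clone 3, where 31.1% and 32.5% of all genes tested were lower and higher in clone 1 and 30.5% and 29.7% in clone 3. The counts in shXBP1 clone 1 were 8 lower and 3 higher of 24 tested, where 16.8% and 16.8% of all genes were lower and higher. Those in shXBP1 clone 18 were 9 lower and 1 higher of 25 tested, where 5.55% and 4.41% of all genes were. LRRC59, which sits on the ER beside ribosomes, fell in all 4 clones, with log2 fold changes of -1.16, -0.93, -0.81 and -0.54 in shIRE1 clones 1 and 3 and shXBP1 clones 1 and 18. RRBP1, a ribosome-binding protein of the rough ER, fell too, with -0.87, -0.98, -0.46 and -0.43 in the same order. HSPA5, which encodes BiP, the chaperone that SEC63, SIL1 and the channel work with, fell, with log2 fold changes of -1.90 (SE 0.03, adjusted p = 5.9e-18) and -0.83 (SE 0.05, adjusted p = 5.3e-10) in the shIRE1 clones. Its change was -0.01 (SE 0.04, adjusted p = 0.83) in shXBP1 clone 1, uncalled, and it rose by 0.25 (SE 0.07, adjusted p = 0.036) in shXBP1 clone 18. That rise of HSPA5 was 0.16 (SE 0.05, adjusted p = 0.057, edgeR) without the library that stood apart, and its call was lost in 6 of 12 fits without 1 library: any one at 0 h, replicate 2 at 24 or 48 h, or replicate 3 at 72 h, with an adjusted p of up to 0.11. The difference of HSPA5 between the hairpin sets was -1.48 (SE 0.05, adjusted p = 1.1e-26). DNAJC1, a J protein of the ER, and MTDH, a membrane protein found at the ER, differed in the same direction, by -1.45 (SE 0.08, adjusted p = 9.0e-19) and -1.16 (SE 0.07, adjusted p = 2.6e-17). The difference at 72 h was called below 0 for 12 of the 25 tested and above 0 for 5, led by SPPL2B, a signal peptide peptidase-like protease, at 1.29 (SE 0.22, adjusted p = 5.4e-06) and NCLN, a subunit of the multipass translocon, at 0.63 (SE 0.20, adjusted p = 0.0077), beside 27.4% and 28% of all genes. SPPL2B rose in shIRE1 clones 1 and 3, by 0.91 and 0.65. Its changes of -0.67 and -0.35 in shXBP1 clones 1 and 18 were not called. NCLN rose in no clone: its changes were -0.63 and -0.19 in the shIRE1 clones, the latter uncalled. In shXBP1 clones 1 and 18 they were -1.48 (SE 0.28) and -0.59 (SE 0.13). LRRC59, RRBP1, HSPA5, DNAJC1, MTDH, SPPL2B and NCLN were named here after their values were seen.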

How the data were processed

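RNA of AMO1 cells was sequenced in 48 libraries (TruSeq stranded mRNA kit, single-end reads of 50 bases). The deposited table holds raw counts per gene, which the authors made by counting aligned reads. Per the labels, the submitters' processing notes name GSNAP 2013-10-10, R 4.1.3, edgeR 3.32.1 and limma 3.46.0, and the builds GRCh37 and hg19. The counting tool, annotation and strand setting are not given in the sources used here. A second table deposited by the authors holds log2 CPM of 18401 genes, which equal log2 values recomputed from the counts with edgeR (TMM factors, prior count of 2) within 5e-14. It served as an alternative.

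Members were matched by symbol, and groups follow the sample titles. The members and gene lists were chosen with earlier results of these data known. Counts were tested with edgeR 4.0.16 in R 4.3.3 (quasi-likelihood F test, TMM factors from 0.924 to 1.09, filterByExpr with a minimum count of 10 and a minimum total of 15), in 1 fit of 12 libraries per clone, each time against 0 h. The differences between hairpin sets, and between clones, came from 1 model of 16 group means over all 48 libraries. All p-values are two-sided, adjusted by Benjamini-Hochberg over every gene in the fit, and called under 0.05. CPM values use TMM factors. Log2 fold changes are edgeR estimates with SE, and replicates are separate flasks. The procedure was tested on simulated data.

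Described in full were members called in the same direction in all 4 clones at 72 h, and those with a called difference between hairpin sets of at least 0.58 in size at 72 h. Other members are given by counts and ranges. Gene lengths come from GENCODE 44, in which all 35 members were found, and promoters from RefSeq (GRCh38.p14). Alternatives were RLE factors, no filter, DESeq2 1.42.0, limma 3.58.1 on the log2 table, a replicate block, 6 or 48 libraries in the fit, clone 1 of each hairpin set only, and each library left out in turn. No 2 replicates agreed within sampling noise: the mean chi-square per gene between replicates of a group was at least 1.67.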

Additional observations from a re-analysis of the deposited data

Results flagged for a closer look

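The change after Dox differed between the hairpin sets for 21 members at 24 h (15 below 0 and 6 above), 27 at 48 h (23 and 4) and 28 at 72 h (24 and 4), by the test of the difference itself in the model over 48 libraries (edgeR, adjusted p under 0.05). Of all genes tested, 19.7% and 19.1%, 28% and 28.9%, and 27.4% and 28% differed below and above 0 at these times. At 72 h the differences of at least 0.58 in size, as shIRE1 minus shXBP1 on the log2 scale, were -1.22 for TMCO1, -1.06 for SSR2, -0.89 for SEC11C, -0.79 for HSPA13, -0.70 for TRAM2, -0.67 for SRP72 and -0.59 for SEC62. Above 0 they were 0.87 for SIL1, 0.78 for SEC61B and 0.64 for SEC61A2. For SSR2, SEC11C, HSPA13, SRP72 and SEC61B the sign was below 0 in both hairpin sets, so that the difference is one of size.

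Clones of the same hairpin set also differed in their change at 72 h, for 18 members between the shIRE1 clones, where 27.5% of all genes did, and 11 between the shXBP1 clones, where 24.6% did. The second count is near the share of all genes and was 6 or 7 in some fits without 1 library. TMCO1 was called in both pairs, with or without the library that stood apart, while HSPA13 between the shXBP1 clones was not called without it (0.26, adjusted p = 0.17, edgeR). What the clones differ in besides was not tested.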

How the results depend on the processing

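Counts of members called stayed within 1.5 times under RLE factors, no filter, DESeq2, limma on the log2 table, 6 or 48 libraries in the fit and the replicate block. With clone 1 of each hairpin set only, 9 members (3 higher, 6 lower) had a called difference at 24 h, beside 21 with both clones, and that of SPCS1 turned to 0.0608 (SE 0.07, adjusted p = 0.593, edgeR). Leaving out 1 library moved the count over all 35 members by over 1.5 times for the difference between the shXBP1 clones at 72 h, 11 in all and 6 to 12 over 48 fits, and counts within a role as given with the roles. It was 6 without shXBP1 clone 1, 0 h, replicate 1 or 72 h, replicate 2, and 7 without shXBP1 clone 18, 72 h, replicate 3. Over all genes, the calls behind the backgrounds moved more. In shXBP1 clone 18 at 24 h they were 268 with 12 libraries, 562 without the filter, 559 with DESeq2, 874 with 6 libraries and 838 with 48. In that clone they were 974 at 48 h (2983 with 6 libraries, 2013 with 48) and 1680 at 72 h (2712 without the filter, 444 with 6, 3345 with 48). Without shXBP1 clone 18, 72 h, replicate 3 they were 821, 2223 and 1300. In shXBP1 clone 1 at 24 h they were 4430, or 2086 with 6 libraries, and for the difference at 24 h 7144, or 4754 with clone 1 only.

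With the replicate number as a block, 31, 34 and 35 members were called in shIRE1 clone 1 at 24, 48 and 72 h, 27, 33 and 32 in shIRE1 clone 3, 18, 22 and 24 in shXBP1 clone 1, 16, 21 and 23 in shXBP1 clone 18, and 21, 27 and 28 for the difference. Between clones the block gave 18 and 9 at 72 h and 13 and 17 at 0 h. The numbers did not pair the samples: correlations of same-numbered deviations ran from -0.41 to 0.25, and 5 of 72 were over 0.1. Over single genes, the block lost 31 of 479 calls of members over all comparisons and gained 1. The promoter matches and the levels at 0 h per kilobase come from no test and had no alternative. Counts per library bound precision: at 1 count per 0.0521 CPM or better, SPCS2, the member lowest per kilobase at 0 h, rests on few counts. Intervals cover counting and flask-to-flask error only.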

Other observations

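The catalytic subunits of signal peptidase moved unequally. The ratio of SEC11C to SEC11A in CPM, not corrected for length, so that its change and not its level can be read, went from 1.01 ± 0.0348 at 0 h to 0.436 ± 0.0176 at 72 h in shIRE1 clone 1 (mean ± SD, n = 3) and from 0.768 ± 0.0452 to 0.430 ± 0.00862 in shIRE1 clone 3. In the shXBP1 clones it went from 1.04 ± 0.0958 to 0.669 ± 0.0178 in clone 1 and from 1.10 ± 0.0149 to 0.747 ± 0.00681 in clone 18. In each clone the 72 h libraries lay below those at 0 h. SEC11A itself stood at 175, 174 and 172 CPM at 0 h and 149, 163 and 155 CPM at 72 h in clone 1 of shIRE1, and at 167, 185 and 179 and 189, 204 and 197 CPM in shXBP1 clone 1. SEC11A fell by 0.16 (SE 0.04, adjusted p = 0.0012) in shIRE1 clone 1 and by 0.69 (SE 0.06, adjusted p = 7.5e-08) in shIRE1 clone 3 by edgeR, and its change in shXBP1 clones 1 and 18 was 0.13 (SE 0.06, adjusted p = 0.11) and -0.08 (SE 0.05, adjusted p = 0.35).

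The ratio of SEC61A2 to SEC61A1 went from 0.0114 ± 0.000811 to 0.0292 ± 0.00176 in shIRE1 clone 1 and from 0.00977 ± 0.00127 to 0.0192 ± 0.00100 in shXBP1 clone 1. The ratio of TRAM2 to TRAM1 went from 1.11 ± 0.0771 to 0.789 ± 0.0137 in shIRE1 clone 1 and from 0.687 ± 0.0530 to 1.15 ± 0.0120 in shIRE1 clone 3. It went from 1.17 ± 0.0973 to 1.39 ± 0.0627 in shXBP1 clone 1 and from 0.698 ± 0.0425 to 1.12 ± 0.155 in shXBP1 clone 18. The shIRE1 clones thus moved in opposite directions in this ratio. SEC11A and these paralog ratios were chosen after their values were seen, and no test of the ratios was made.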
